A study of Mus musculus with 16 samples.

Results

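The genes described here encode the 3 cytokines IL-19, IL-20 and IL-24 (Il19, Il20 and Il24) and the 4 receptor chains through which they and their relative IL-22 act, Il20ra, Il20rb, Il22ra1 and Il10rb. They were chosen by gene family, with the difference between the 2 antibody groups already known, in which Il24 stood out. All 7 are among the 45777 genes of the deposited table. Their levels and differences between the groups are therefore given as descriptions. Which of the 7 passed the test run over all genes is stated, but nothing is read from it. P-values are given only for genes outside the family and for the order of the levels. The gene lists used below were also written with earlier results of these data known. Ear skin of wild-type (WT) C57BL/6 mice was profiled by sequencing of polyA RNA. The labels list 16 libraries in 4 groups, and the table used here holds 6 of them. In 3 the mice had received a neutralising antibody to the cytokine oncostatin M (anti-OSM), and in the other 3 an antibody to Ly6G, a surface protein of neutrophils (anti-Ly6G). The other 10 libraries, of control ears and of ears given MC903 without these antibodies, were not analysed here. Both antibody groups carried the same skin treatment, which was MC903 (calcipotriol, a vitamin D analogue that causes dermatitis) at 50 µM in 20 µL of ethanol on both ears each day for 10 days. Anti-OSM went into the skin at 20 µg per mouse every other day. Mice of the other group had 200 µg of anti-Ly6G each by the intraperitoneal route, first 2 days ahead of MC903 and then 1 and 4 days after it. Antibody, route and schedule differed together, no isotype antibody is named, and the labels used here give neither age nor sex. No day of collection or library batch is given, so a batch cannot be told apart from the antibody. A difference below is that of anti-OSM relative to anti-Ly6G, and which group moved cannot be told without the ears given MC903 alone.

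IL-19, IL-20 and IL-24 are small secreted proteins of the IL-10 superfamily that are made by activated keratinocytes and by myeloid cells. All of them bind a receptor built from the chains IL-20RA and IL-20RB, and IL-20 and IL-24 also bind a receptor built from IL-22RA1 and IL-20RB. IL-22, made by lymphocytes, uses IL-22RA1 together with IL-10RB, the chain that also serves the receptors for IL-10 and the lambda interferons. IL-20RA, IL-20RB and IL-22RA1 are found mainly on epithelial cells, whereas IL-10RB is widespread. In keratinocytes these receptors signal through Janus kinases and STAT3, and the pathway is known for epidermal thickening, for antimicrobial and stress keratin genes and for reduced terminal differentiation. Oncostatin M, the target of one antibody, is an IL-6 family cytokine of leukocytes that acts on keratinocytes through a receptor containing OSMR.

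Total counts ran from 52163179 to 64122588 per library, so that the floor of 3 counts lay between 0.0468 and 0.0575 CPM (counts scaled to a library of 1000000). No read fell on 16043 of the listed genes, and 19915 genes passed the filter and were tested with edgeR's quasi-likelihood test at an adjusted p of 0.05, which called 2406 genes. That is 12.1% of the genes tested, with 5.81% called higher and 6.27% called lower with anti-OSM. Leaving out 1 library changed those counts to between 240 and 1545 higher genes and between 420 and 1447 lower genes. Without any 1 library other than anti-Ly6G replicate 3, both counts were lower by more than 1.5 times (at most 580 and 739). The 3 values of 1 group did not overlap those of the other for 35.0% of the tested genes, with 17.7% higher and 17.3% lower. Whether each library of a group is another mouse is not stated in the labels, so the p-values below speak only of the spread from library to library. The summed markers of basal and suprabasal keratinocytes, fibroblasts and the other cell types of skin were above 0 in every library. So were those of skeletal muscle and cartilage.

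All 7 genes passed the filter on low counts. The 3 cytokine genes sit side by side on chromosome 1 on the minus strand and were each lower on average with anti-OSM, by very different amounts. Il24, the cytokine with the largest difference, was 7.96-fold lower, Il19 was 2.37-fold lower, and the Il20 groups overlapped. Among the receptor chains, Il10rb was higher with anti-OSM in every library, and the groups of the other 3 overlapped. Of the 7 genes 2 (28.6%) were past the threshold of the test across all genes, Il24 on the lower side and Il10rb on the higher side. Il10rb fell short of it whenever 1 library other than anti-Ly6G replicate 3 was left out, and Il19 reached it without anti-Ly6G replicate 2. The groups did not overlap for 3 of the 7, Il24 and Il19 lower and Il10rb higher. These counts are given beside the shares of all genes above, and nothing is read from them, since the genes were selected on this contrast.

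**Figure D1:**
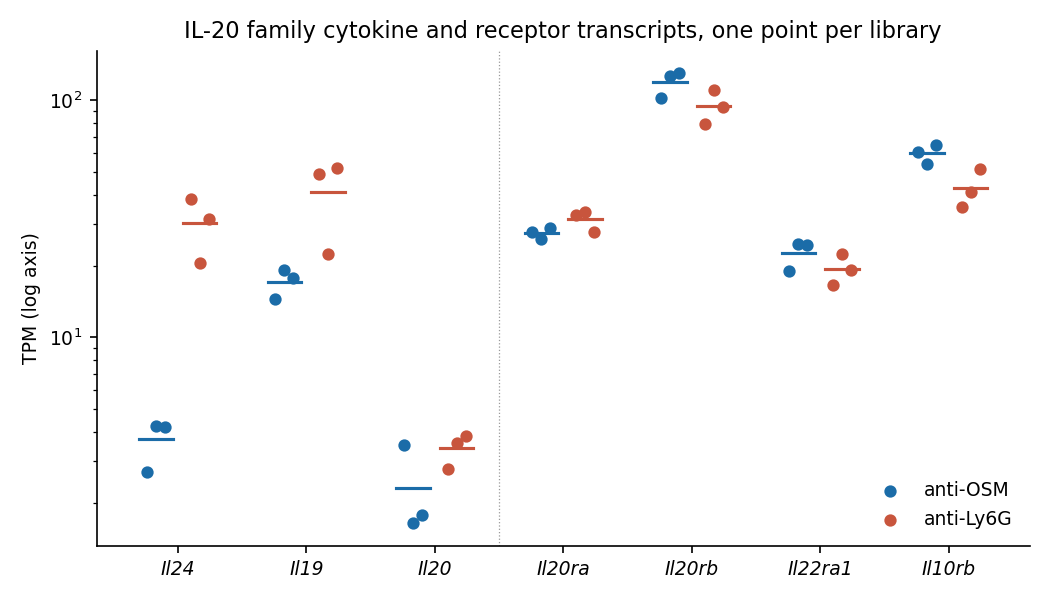
TPM (log axis) of the 7 genes in each library, with points for the 3 anti-OSM and 3 anti-Ly6G libraries and lines for group means. Il24 has the widest gap, from 4.24 at the highest anti-OSM library to 20.6 at the lowest anti-Ly6G library, and Il20rb is the highest gene in all 6 libraries.

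Il24 (gene ID 93672, chr1:130882074-130887411, minus strand, GRCm38.p6) encodes IL-24, a keratinocyte cytokine linked to itch and barrier loss in dermatitis. In TPM, which divides by transcript length so that genes can be compared, it measured 2.71, 4.24 and 4.20 in anti-OSM replicates 1 to 3. It measured 38.5, 20.6 and 31.6 TPM in anti-Ly6G replicates 1 to 3. The groups lay far apart, and the lowest anti-Ly6G library held 4.61 times as much as the highest anti-OSM library in CPM. The group means were 3.71 ± 0.872 TPM (SD, n = 3) with anti-OSM and 30.2 ± 9.03 TPM (SD, n = 3) with anti-Ly6G. These values rest on 77, 137 and 132 reads with anti-OSM and on 1303, 629 and 1073 reads with anti-Ly6G. On the counts the difference was -2.99 on the log2 scale (SE 0.29, 95% interval -3.68 to -2.31). It ran from -3.22 to -2.75 when each library was left out in turn.

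Il19 (gene ID 329244, chr1:130932656-130945457, minus strand) encodes IL-19, a cytokine of keratinocytes and myeloid cells that uses only the receptor of IL-20RA and IL-20RB. It measured 14.5, 19.2 and 17.8 TPM in anti-OSM replicates 1 to 3 and 49.1, 22.5 and 51.6 TPM in anti-Ly6G replicates 1 to 3. Anti-Ly6G replicate 2 was low for its group and lay only 1.12 times above the highest anti-OSM library in CPM, so the groups met without overlapping. The coefficient of variation was 15.2% with anti-OSM and 40.5% with anti-Ly6G. The difference was -1.24 on the log2 scale (SE 0.32, 95% interval -2.01 to -0.47), and -1.55 without anti-Ly6G replicate 2. The same library was also the lowest of its group for Il24.

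Il20 (gene ID 58181, chr1:130906985-130911296, minus strand) lies between Il24 and Il19 and encodes IL-20, a keratinocyte cytokine known from psoriasis that uses both receptors. Its median over the 6 libraries was the lowest of the 7 genes, and it measured 3.53, 1.645 and 1.79 TPM in anti-OSM replicates 1 to 3 and 2.77, 3.57 and 3.85 TPM in anti-Ly6G replicates 1 to 3. Anti-OSM replicate 1 was as high as the anti-Ly6G libraries and the other anti-OSM libraries were lower, so the groups overlapped. These values rest on 88, 49 and 51 reads with anti-OSM, against 87, 100 and 118 with anti-Ly6G. The difference was -0.55 on the log2 scale (SE 0.28, 95% interval -1.20 to 0.09). Whether Il20 and Il24 differed unlike each other between the groups was not tested.

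The windows before the RefSeq starts of Il19 and Il20 are shown because these cytokine genes are neighbours on 1 strand. Their 95% intervals overlapped (-2.01 to -0.47 for Il19 and -1.20 to 0.09 for Il20). Whether the 2 genes differed unlike each other between the groups was not tested. RefSeq's GRCm38.p6 table held a window for 5 of the 7 genes, and Il24 and Il10rb were not among them. Each sequence is the 250 bases before the start, written 5′ to 3′ on the gene's own strand. Il19 is at chr1:130940116-130940365 and Il20 at chr1:130911297-130911546, both on the minus strand. The Il19 window precedes a start that lies inside the longest model of the gene. Capitals mark matches to a STAT motif, TTCNNNGAA, or to the NF-kB motif, searched on both strands.
Il19: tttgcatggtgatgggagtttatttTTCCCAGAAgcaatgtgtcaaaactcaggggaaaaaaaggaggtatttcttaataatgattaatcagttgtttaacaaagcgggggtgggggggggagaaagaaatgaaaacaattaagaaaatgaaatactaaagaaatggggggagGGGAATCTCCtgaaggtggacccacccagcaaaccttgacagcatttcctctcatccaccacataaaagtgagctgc
Il20: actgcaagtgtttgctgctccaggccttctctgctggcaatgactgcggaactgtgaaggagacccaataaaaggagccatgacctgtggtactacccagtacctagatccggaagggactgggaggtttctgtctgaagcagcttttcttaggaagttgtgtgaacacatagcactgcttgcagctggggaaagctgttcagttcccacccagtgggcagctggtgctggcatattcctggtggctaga
The Il19 window held a STAT match from -225 to -217 and an NF-kB match from -77 to -68, counted back from the start, and the 2 matches did not overlap. The Il20 window held neither of these, nor a match to the AP-1 motif TGANTCA. Over all 32851 windows of this length 7.02% held a STAT match, 6.75% an AP-1 match and 3.90% an NF-kB match. The GC content was 42.0% for Il19 and 52.8% for Il20, beside a median of 52.4% over all windows. These matches describe letters in the windows only.

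Because the 3 cytokines differed by different amounts, the make-up of the cytokine transcripts differed as well as their sum. Summed over Il19, Il20 and Il24, the libraries held 20.7, 25.1 and 23.8 TPM with anti-OSM and 90.3, 46.7 and 87.0 TPM with anti-Ly6G. Il24 made up 13.1%, 16.9% and 17.7% of that sum in anti-OSM replicates 1 to 3, and 42.6%, 44.1% and 36.3% in anti-Ly6G replicates 1 to 3. The group means of this share were 15.9% ± 2.47 and 41.0% ± 4.14 (SD, n = 3 each), and the groups lay far apart. The Il19 share was 69.9% to 76.5% with anti-OSM, against 48.2% to 59.3% with anti-Ly6G, so Il19 was the main cytokine transcript of the 3 in all 6 libraries. Il20 made up 6.56% to 17.0% with anti-OSM, against 3.07% to 7.66% with anti-Ly6G. The ratio of Il24 to Il19 was 0.187, 0.221 and 0.236 with anti-OSM, against 0.785, 0.914 and 0.612 with anti-Ly6G. Anti-Ly6G replicate 2, the lowest of its group in both genes, had the highest ratio of Il24 to Il19. The shares use the same values on which the genes were chosen and are a description.

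**Figure D2:**
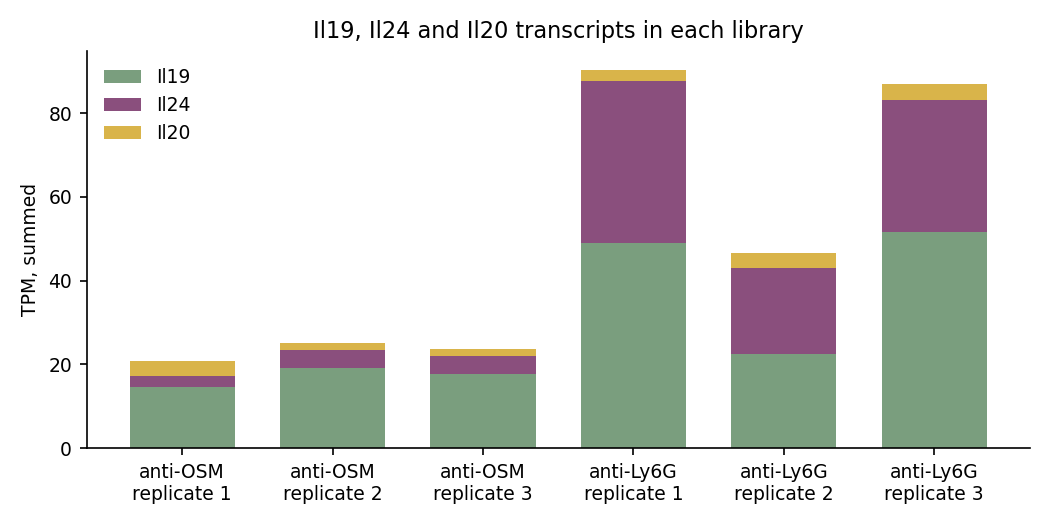
Summed TPM of Il19, Il20 and Il24 per library as stacked bars, 1 bar per library of the anti-OSM and anti-Ly6G groups. The sums are 20.7 to 25.1 TPM with anti-OSM and 46.7 to 90.3 TPM with anti-Ly6G, and the Il24 share is 13.1% to 17.7% against 36.3% to 44.1%.

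The receptor chains had smaller differences than Il24 and Il19, and Il10rb differed about as much as Il20 did. Il20ra (gene ID 237313, chr10:19711673-19760053, plus strand) encodes the chain that binds all 3 cytokines together with IL-20RB. It measured 27.7, 25.9 and 29.0 TPM with anti-OSM and 32.7, 33.9 and 27.9 TPM with anti-Ly6G. Anti-Ly6G replicate 3 fell inside the anti-OSM range, so the groups overlapped. The difference was -0.18 on the log2 scale (SE 0.09, 95% interval -0.40 to 0.04). The long noncoding RNA Gm33332 overlaps Il20ra on the other strand and held 2 reads in anti-OSM replicate 1 and 0 in every other library. No other gene of the family had an overlapping neighbour.

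Il20rb (gene ID 213208, chr9:100457719-100486473, minus strand) encodes the chain shared by both receptors of the family. It measured 102.4, 127 and 130.0 TPM with anti-OSM and 79.5, 110.4 and 94.1 TPM with anti-Ly6G. Anti-OSM replicate 1 lay inside the anti-Ly6G range, and the other anti-OSM libraries were the highest of the 6. The difference was 0.37 on the log2 scale (SE 0.13, 95% interval 0.08 to 0.66). Il22ra1 (gene ID 230828, chr4:135728159-135755383, plus strand) encodes the chain through which IL-22, IL-20 and IL-24 act. It measured 19.1, 24.7 and 24.6 TPM with anti-OSM and 16.6, 22.5 and 19.2 TPM with anti-Ly6G. The same library, anti-OSM replicate 1, lay inside the anti-Ly6G range, and the difference was 0.26 (SE 0.13, 95% interval -0.04 to 0.56).

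Il20rb and Il22ra1, whose products pair as one receptor, kept a narrow ratio to each other. Il20rb was 5.37, 5.15 and 5.28 times Il22ra1 in TPM with anti-OSM, against 4.80, 4.91 and 4.91 times with anti-Ly6G. The ratio of Il20rb to Il20ra, which pair as the other receptor, was wider at 3.70 to 4.90 with anti-OSM, against 2.43 to 3.37 with anti-Ly6G. The groups did not overlap in either ratio. Over the 6 libraries the log2 CPM of Il20rb and Il22ra1 had a Pearson r of 0.977. Of 12806 genes compared, 74 had an r of at least 0.95 with Il20rb, so close tracking was not particular to this pair. The windows before the starts of Il20rb and Il22ra1 are shown for comparison, 250 bases each on the gene's own strand from RefSeq, GRCm38.p6. Il20rb is at chr9:100486474-100486723 on the minus strand and Il22ra1 at chr4:135727909-135728158 on the plus strand. Capitals mark an AP-1 match.
Il20rb: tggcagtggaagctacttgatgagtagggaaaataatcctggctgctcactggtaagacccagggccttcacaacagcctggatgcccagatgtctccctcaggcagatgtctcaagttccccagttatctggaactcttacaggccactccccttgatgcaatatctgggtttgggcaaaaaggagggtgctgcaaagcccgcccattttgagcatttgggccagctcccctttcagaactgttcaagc
Il22ra1: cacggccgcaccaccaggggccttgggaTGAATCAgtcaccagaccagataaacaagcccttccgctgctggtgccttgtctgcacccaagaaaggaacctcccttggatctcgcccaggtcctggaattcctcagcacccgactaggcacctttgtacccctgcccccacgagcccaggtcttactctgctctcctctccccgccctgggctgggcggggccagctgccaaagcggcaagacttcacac
The Il22ra1 window held an AP-1 match from -222 to -216, and the Il20rb window held no match to any of the 3 motifs. The Il20ra window, not shown, held an AP-1 match from -164 to -158. No motif was shared by the windows of Il20rb and Il22ra1. Their GC contents were 52.4% and 62.4%.

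Il10rb (gene ID 16155, chr16:91406157-91425834, plus strand) encodes the chain shared by the receptors for IL-22, IL-10 and the lambda interferons, and is the member with the broadest use. It measured 60.7, 53.9 and 64.8 TPM with anti-OSM and 35.6, 41.2 and 51.4 TPM with anti-Ly6G. All anti-OSM libraries lay above all anti-Ly6G libraries, though anti-OSM replicate 2 was only 1.07 times anti-Ly6G replicate 3 in CPM. The difference was 0.51 on the log2 scale (SE 0.13, 95% interval 0.21 to 0.81), or 1.42-fold higher. It was 0.66 without anti-Ly6G replicate 3 and ran from 0.41 to 0.58 when any other library was left out.

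**Figure D3:**
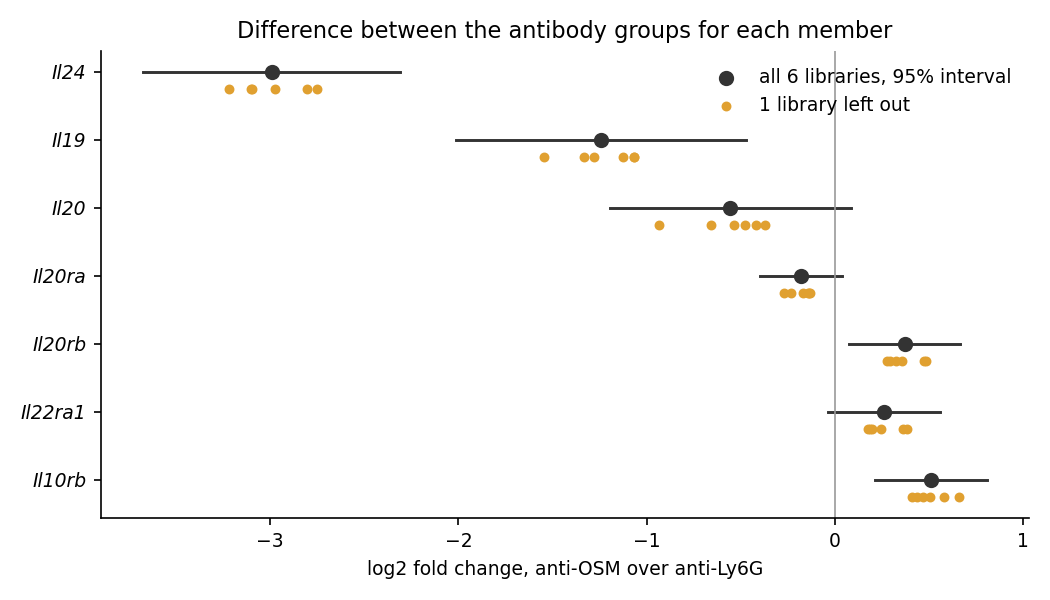
Log2 fold change of anti-OSM over anti-Ly6G for the 7 genes, with points for all 6 libraries, lines for 95% intervals and small points for the fits that leave out 1 library. Il24 is at -2.99 with an interval of -3.68 to -2.31, the receptor chains lie between -0.18 and 0.51, and the intervals of Il20, Il20ra and Il22ra1 cross 0.

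The order of the levels was not used to choose the genes, though the levels come from the libraries whose difference was known. Il20rb came first with a median of 106 TPM over the 6 libraries. It was followed by Il10rb at 52.7, Il20ra at 28.4, Il19 at 20.9, Il22ra1 at 20.8, Il24 at 12.4 and Il20 at 3.15 TPM. Each neighbouring pair was compared within libraries on log2(TPM + 0.1) by a 2-sided exact sign-flip permutation test, for which 6 libraries allow no p below 0.0312. The pairs were set by the medians of these same 6 libraries, pooled over both antibody groups. The p-values are therefore no independent support for the order. Il20rb was above Il10rb in 6 of 6 libraries, by 1.07 ± 0.246 on the log2 scale (SD, n = 6, exact p = 0.0312, adjusted over the 6 pairs 0.0936). Il10rb was above Il20ra in 6 of 6 libraries, by 0.77 ± 0.454 (SD, n = 6, exact p = 0.0312, adjusted 0.0936). None of the 6 pairs passed after adjustment. Il20ra was above Il19 in 4 of 6 libraries (exact permutation p = 0.5), Il19 above Il22ra1 in 3 of 6 (p = 0.469), Il22ra1 above Il24 in 4 of 6 (p = 0.219) and Il24 above Il20 in 5 of 6 (p = 0.0625). The place of Il19 and Il24 in the order was not the same in the antibody groups. With anti-Ly6G, Il19 at 22.5 to 51.6 TPM and Il24 at 20.6 to 38.5 TPM lay in the range of the Il20ra and Il22ra1 chains or above it, whereas with anti-OSM Il24 lay below every receptor chain.

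Skin libraries hold several cell types, and fewer cells of a type and less RNA per cell cannot be told apart in them. The 8 basal keratinocyte markers, among them Krt5 and Krt14, summed to 10485 to 12960 CPM with anti-OSM and 14935 to 15670 CPM with anti-Ly6G, so no anti-OSM library reached the lowest anti-Ly6G library. The sum rests mainly on Krt14 and Krt5, at 5235 and 3935 CPM on average with anti-OSM, against 7654 and 4599 with anti-Ly6G. In edgeR's test 0 of the 8 markers rose and 3 fell (0 fell without anti-OSM replicate 1 or 3). Those that fell were Krt14, Itga6 and Itgb4. Krt5, Krt15 and Trp63 were lower on average without passing, and Col17a1 and Dst differed by 0.01 and 0.14 on the log2 scale. Over all tested genes 5.81% were called higher and 6.27% lower. Suprabasal markers overlapped, at 16146 to 18756 CPM with anti-OSM and 15159 to 22690 CPM with anti-Ly6G. Per 1000 basal keratinocyte counts, Il24 read 0.138, 0.179 and 0.185 with anti-OSM, against 1.36, 0.697 and 1.12 with anti-Ly6G, so its groups did not overlap on this scale either. Il19 overlapped, at 0.740 to 0.809 with anti-OSM, against 0.768 to 1.83 with anti-Ly6G. Il20rb then read 11.5 to 12.7 with anti-OSM, against 6.21 to 8.29 with anti-Ly6G, and Il22ra1 5.04 to 5.63 and 3.04 to 3.97. The groups of both genes, which overlapped in CPM, did not overlap per basal keratinocyte count. The basal sum was lower in every anti-OSM library, so dividing by it raises the difference of any gene. How many of all genes did not overlap on this scale was not counted, and nothing is read from it for these 2. Il20ra overlapped on both scales, and its difference turned from -0.18 to 0.18 on the log2 scale. Whether the mix of cells bears on the levels was not tested.

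Il10rb is carried by leukocytes as well as epithelium, and markers of several leukocytes were higher with anti-OSM. The 8 macrophage and monocyte markers summed to 2162 to 2542 CPM with anti-OSM and 1301 to 1925 CPM with anti-Ly6G. In edgeR's test 3 of the 8 rose and 0 fell, beside 5.81% of all tested genes called higher and 6.27% called lower. Of the 8, 1 rose without anti-Ly6G replicate 2 and 7 without anti-Ly6G replicate 3. Per 1000 macrophage and monocyte marker counts, a scale chosen after the values were seen, Il10rb read 22.5, 22.7 and 23.5 with anti-OSM, against 24.6, 27.7 and 23.8 with anti-Ly6G. The groups then lay in the opposite order, with every anti-OSM library below every anti-Ly6G library and a difference of -0.15 on the log2 scale. The nearest libraries, at 23.5 and 23.8, lay close together. No ratio to another leukocyte list was taken, and whether the mix of cells bears on Il10rb was not tested. Dendritic and Langerhans cell markers summed to 335 to 418 CPM against 213 to 256, T cell markers to 77.9 to 87.3 against 45.1 to 66.6, mast cell markers to 551 to 615 against 324 to 401 and eosinophil markers to 12.4 to 29.2 against 3.60 to 6.52. In edgeR's test 5 of 8, 2 of 8, 5 of 6 and 2 of 4 tested markers of these lists rose, in that order, and 0 fell. With 1 library left out 2 to 5, 0 to 6, 4 to 5 and 2 to 4 rose. The shares of all tested genes are those just given. Neutrophil markers overlapped at 155 to 178 CPM with anti-OSM and 101 to 169 CPM with anti-Ly6G, and so did endothelial and melanocyte markers. Fibroblast markers were higher in every anti-OSM library, at 9277 to 9625 CPM against 5558 to 8059 CPM. In edgeR's test 3 of the 6 rose and 0 fell, beside the same shares of all tested genes. Of the 6, 0 rose without any 1 anti-OSM library, 1 without anti-Ly6G replicate 1 and 6 without anti-Ly6G replicate 3. Muscle and cartilage markers were lower in every anti-OSM library, at 2581 to 3096 against 3859 to 4214 CPM and 190.0 to 199 against 289 to 332 CPM. In edgeR's test 5 of 6 muscle and 4 of 6 cartilage markers fell and 0 rose, beside the same shares of all tested genes. With 1 library left out 2 to 5 and 3 to 4 fell.

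Around Il24, 27 genes other than Il19 and Il20 lie wholly within 500 kb on chromosome 1, and 18 of them were tested. In edgeR's test 1 of the 18 rose, 1 fell and 16 did not pass, while 4 had no count and 5 had too few reads to test. Over all tested genes 5.81% were called higher and 6.27% lower, and nothing about the locus is read from its counts. The gene that fell was Fcmr, which encodes the Fc receptor for IgM on lymphocytes and ends 1.28 kb from the end of Il24 on the opposite strand. It had 9, 11 and 5 reads with anti-OSM, against 26, 35 and 27 with anti-Ly6G, with a difference of -1.68 (SE 0.37, edgeR adjusted p = 0.0254). Its call was lost without any 1 of the libraries other than anti-Ly6G replicate 3, with an edgeR adjusted p of up to 0.0926. The 2 annotated genes do not overlap. Whether reads running past the annotated end of Il24 were counted for Fcmr was not examined, and any use of strand in counting is not given. The gene that rose was Cd55, which encodes a complement regulator, 417 kb from Il24. It read 90.3 ± 8.87 CPM (SD, n = 3) with anti-OSM and 55.8 ± 4.06 CPM (SD, n = 3) with anti-Ly6G, a difference of 0.69 (SE 0.09, edgeR adjusted p = 0.00467) that held without each library. Il10, the anti-inflammatory founder of the superfamily 132 kb from Il24, had a difference of -0.39 (edgeR adjusted p = 0.429). Mapkapk2, a stress kinase gene in the same cluster, had -0.10 (edgeR adjusted p = 0.346).

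**Figure D4:**
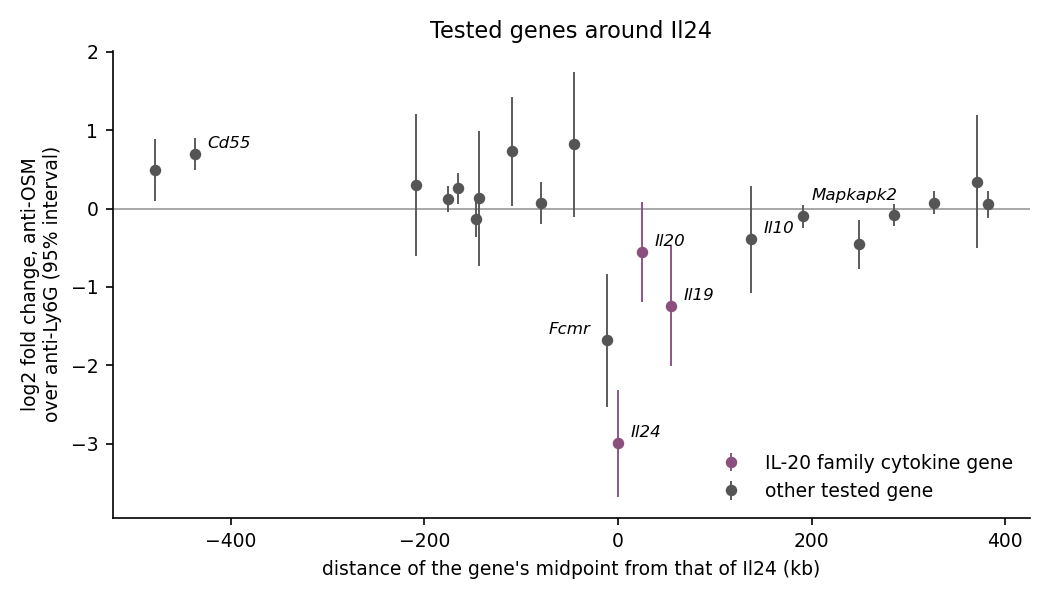
Log2 fold change of anti-OSM over anti-Ly6G for the 21 tested genes within 500 kb of Il24, against the distance of the gene's midpoint from that of Il24 in kb, with 95% intervals as bars. Il24 at -2.99 and Fcmr at -1.68 are the lowest, and Il19 is at -1.24. Cd55 at 0.69 is the only gene called higher in edgeR's test, while Pigr at 0.82 and Gm28856 at 0.73 lie above it and did not pass.

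Gene models with Gm or Rik names were left out of the genes named here for Il24 and Il20rb, but not of the 12806 genes compared. Among the rest, those whose log2 CPM followed Il24 most closely over the 6 libraries were Slc30a9 (Pearson r = 0.9989), Cdk6 (0.9967), Ldha (0.9962), Cox8b (0.9955) and Zmym1 (0.9951). Slc30a9 and Zmym1 are a zinc transporter and a zinc finger gene, Cdk6 is a cell cycle kinase, Ldha is lactate dehydrogenase A and Cox8b is a subunit of cytochrome c oxidase. Their own differences were small, from -0.73 for Cox8b to -0.17 for Slc30a9 on the log2 scale. An r of at least 0.95 with Il24 was reached by 315 genes, or 2.46% of those compared. For Il20rb the closest genes were Nccrp1 (r = 0.9945), Pik3cb (0.9935), Gata3 (0.9907), R3hdm4 (0.9906) and Sh3gl2 (0.99), and 74 genes (0.578%) reached 0.95. Gata3 encodes a transcription factor of T cells and of epidermis and Pik3cb a catalytic subunit of PI3 kinase. These values describe 6 libraries that fall into 2 groups and carry no test.

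Genes linked to the pathway were read from 6 lists of 94 entries, of which 86 were tested, and 8 rose and 8 fell. The lists were written with earlier results of these data known. Their counts, medians and p-values are therefore no independent support. Of the 16 calls 5 held without each library in turn, those of Ptgs2, Areg, Krt6a, Krt17 and Tslp, all of them lower with anti-OSM. Each of the other 11 was lost without at least 1 library. The median log2 difference over all tested genes was 0.00676. The first list held cytokines known to induce the family and its relatives, in which 15 of 19 genes were tested, 1 rose, 2 fell and 12 did not pass, with a median of 0.0766. Tslp, the epithelial cytokine that MC903 is known to induce, read 82.2 ± 17.7 CPM (SD, n = 3) with anti-OSM and 374 ± 127 CPM (SD, n = 3) with anti-Ly6G. It fell by 2.19 on the log2 scale (SE 0.28, edgeR adjusted p = 0.00872, at most 0.0427 without 1 library). Il33, an alarmin of epithelium, fell by 0.81 (edgeR adjusted p = 0.0151), a call that needed anti-OSM replicates 1 and 2 and anti-Ly6G replicate 1 (up to 0.0603 without 1 of them). Il1f6, the symbol used in the table for Il36a, an epidermal IL-1 family cytokine, rose from 6.57 to 13.8 CPM, a difference of 1.07 (SE 0.23, edgeR adjusted p = 0.0244). It passed only while anti-OSM replicates 2 and 3 and anti-Ly6G replicates 1 and 2 were all in the fit (up to 0.0869 without 1 of them). Osm itself read 10.8 ± 4.56 and 11.0 ± 2.22 CPM (SD, n = 3 each), with a difference of -0.02 (edgeR adjusted p = 0.973), which bears on the transcript and not on the protein that the antibody binds. Il17a had 0 reads in all 6 libraries, and Il17c, Il17f and Il31 had too few to test.

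Among the receptors for those inducing cytokines, 3 of 18 rose, 0 fell and 15 did not pass, with a median of 0.108. Ifngr1 and Ifngr2, the chains of the interferon gamma receptor, differed by 0.32 and 0.34 (edgeR adjusted p = 0.0249 and 0.0459), and Il6ra, the IL-6 receptor alpha chain, by 0.37 (0.0433). None of these calls held without every library: 0 to 3 receptors rose when 1 library was left out, 0 of them without each anti-OSM library and without anti-Ly6G replicate 1. Osmr, the oncostatin M receptor chain, read 78.6 ± 3.22 CPM with anti-OSM and 91.2 ± 9.65 CPM with anti-Ly6G (SD, n = 3 each), and its difference of -0.22 did not pass (edgeR adjusted p = 0.133).

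Of the other ligands and receptors of the IL-10 superfamily, 4 of 8 could be tested, and 1 rose, 0 fell and 3 did not pass. Il10ra, the ligand-binding chain that pairs with IL-10RB for IL-10, rose from 34.3 ± 7.20 to 49.3 ± 1.54 CPM (SD, n = 3 each), a difference of 0.52 (SE 0.13, edgeR adjusted p = 0.0417). It is carried mainly by leukocytes. Its call held only without anti-Ly6G replicate 3 among the fits that left out 1 library (up to 0.134 in the others). Il22 had 0, 10 and 0 reads with anti-OSM, against 4, 5 and 3 with anti-Ly6G, too few to test. Il22ra2, the soluble decoy receptor for IL-22, had a difference of 0.36 (edgeR adjusted p = 0.256).

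In the list of JAK-STAT signalling and feedback genes, 2 of 15 rose, 0 fell and 13 did not pass, with a median of 0.157. Cish, a feedback inhibitor best known from STAT5 signalling, rose from 70.5 ± 1.37 to 92.8 ± 6.58 CPM (SD, n = 3 each), a difference of 0.40 (SE 0.07, edgeR adjusted p = 0.0123). It did not pass when anti-OSM replicate 1 or 3 was left out (up to 0.0551). Tyk2, the kinase that associates with IL-10RB, differed by 0.22 (edgeR adjusted p = 0.0471), and its call was lost without each of the 6 libraries (0.0635 to 0.158). Stat3, which encodes the main transcription factor of the pathway, had a difference of -0.23 that did not pass (edgeR adjusted p = 0.0643). Socs3, the feedback gene that STAT3 induces, had -0.20 (edgeR adjusted p = 0.545).

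The list of keratinocyte defence and stress genes that the family and IL-22 are known to induce had 20 tested genes, of which 0 rose, 5 fell and 15 did not pass, with a median of -0.837. Without 1 library 4 to 9 of them fell, 9 without anti-OSM replicate 3. Ptgs2, the inducible cyclooxygenase, read 6.99 ± 1.35 CPM with anti-OSM and 46.4 ± 10.3 CPM with anti-Ly6G (SD, n = 3 each), and fell by 2.73 on the log2 scale (SE 0.20, edgeR adjusted p = 0.00107). Areg, an EGF receptor ligand, read 4.37 ± 1.09 and 18.7 ± 5.19 CPM (SD, n = 3 each), and fell by 2.09 (SE 0.24, edgeR adjusted p = 0.00444). The stress keratins Krt6a and Krt17 fell by 1.78 (SE 0.26, edgeR adjusted p = 0.0111) and 1.18 (SE 0.19, edgeR adjusted p = 0.0120). Krt16, another stress keratin of the list, had -0.86 with overlapping groups and did not pass (edgeR adjusted p = 0.0950). Krt6b fell by 1.68 (SE 0.32, edgeR adjusted p = 0.0237), but did not pass when anti-OSM replicate 1, anti-OSM replicate 2 or anti-Ly6G replicate 1 was left out (up to 0.0802). Krt6a and Krt6b are near-identical copies, so the split of reads between them is uncertain. The antimicrobial genes of the same list did not pass: S100a8 had -0.10, S100a9 0.04, Lcn2 -0.47, Defb4 -0.81 and S100a7a -1.22 (edgeR adjusted p = 0.0585 for S100a7a). S100a8 and S100a9 are also neutrophil genes and belong to that marker list here.

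Of the differentiation genes that these cytokines are known to lower 14 were tested, and 1 rose, 1 fell and 12 did not pass, with a median of 0.123. Ivl, which encodes the envelope protein involucrin, rose from 55.0 to 87.3 CPM, a difference of 0.67 (SE 0.17, edgeR adjusted p = 0.0443). Klk7, a protease of cornified layers, fell by 0.49 (SE 0.13, edgeR adjusted p = 0.0419). Both calls held only without anti-Ly6G replicate 3 among the fits that left out 1 library (up to 0.129 and 0.141 in the others). Krt1 had -0.68 (edgeR adjusted p = 0.0522) and the filaggrin gene Flg 0.02. None of these lists was fitted or tested as a set, and their counts are given beside the 5.81% of all genes called higher and the 6.27% called lower.

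**Figure D5:**
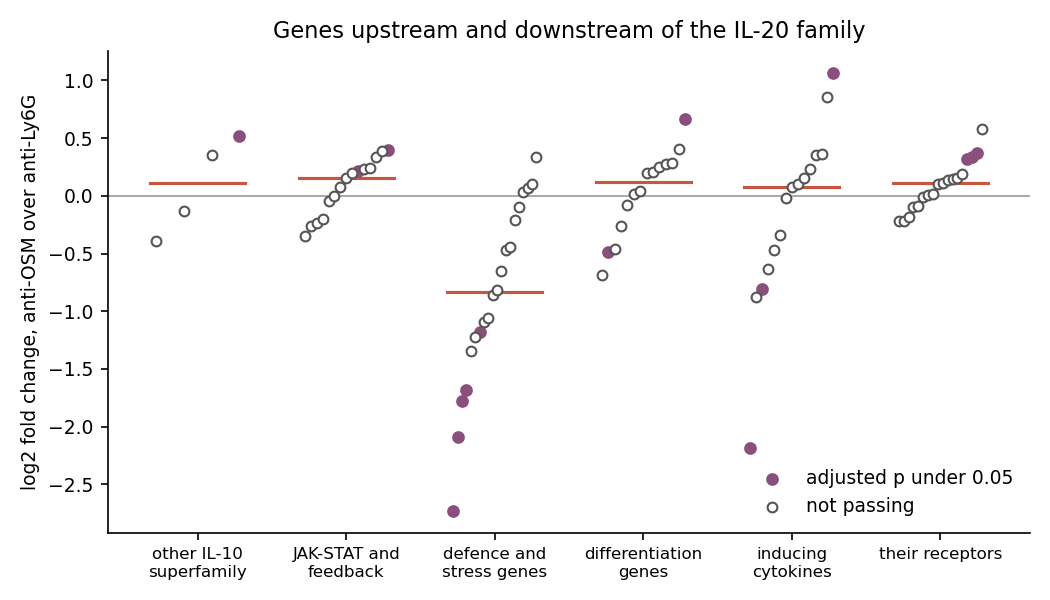
Log2 fold change of anti-OSM over anti-Ly6G for the tested genes of the 6 lists, 1 column per list, with filled points for genes past the adjusted p of 0.05 and a line at the list's median. The defence and stress genes have a median of -0.837 and 5 called genes on the lower side, and the other 5 medians lie between 0.0766 and 0.157.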

How the data were processed

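Per the file headers, the table lists for every gene and each of 6 libraries its read count, FPKM and TPM. The counts are whole numbers as deposited. Not given in the sources used here are the way reads were assigned to genes and any use of strand. The authors' TPM values sum to 1000000 per library and were used to compare levels between genes. The FPKM values deposited by the authors served only as an alternative to TPM for that order. Among the tools in the submitters' processing notes, which state no roles, are the aligner HISAT2 2.1.0, the quantifier StringTie 2.1.3b and edgeR 3.40.2. Of the builds in those notes mm10 is the mouse build that matches GRCm38.p6, whose RefSeq table gave the gene positions.

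Counts were tested with edgeR 4.0.16 in R 4.3.3 (filterByExpr, TMM scaling, robust quasi-likelihood fit, 2-sided F-test, Benjamini-Hochberg adjustment over 19915 genes, threshold 0.05), on the 6 libraries with no covariate, after a check on simulated data. Standard errors and 95% intervals come from the same fit. CPM values use TMM-scaled library sizes. Floors cover counting error only. As alternatives the fit was repeated with DESeq2 1.42.0, with limma-voom (limma 3.58.1), with other scalings, other filters, a non-robust fit, a replicate block, other pseudocounts, ratios to marker counts and leaving out each library.

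The members and the gene lists were chosen with earlier results of these data known. All members were named. Of each list, up to 6 genes past the threshold with the smallest p were named, and otherwise up to 4 with the smallest p. Also named were the genes within 500 kb of Il24 past the threshold and the 5 genes of at least 5 CPM most like Il24 and Il20rb, leaving out gene models with Gm or Rik names. Of the other genes in that window Il10, Mapkapk2, Pigr and Gm28856 were named with their values known, and the rest were not named. Il22, Osm, Osmr, Stat3, Socs3, the Il17 genes, Il31, S100a8, S100a9, Lcn2, Defb4, Krt1, Krt16 and Flg were added after their values were seen, where the rule for the lists did not name them. Within each group, every pair of libraries differed by more than counting noise (chi-square per gene of at least 26.2), so all were kept as replicates.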

Additional observations from a re-analysis of the deposited data

How the results depend on the processing

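The log2 difference of Il24 was -3.22 to -2.75 when 1 library was left out and -3.00 to -2.62 under the other alternatives. Per basal keratinocyte count the differences were 0.73 for Il20rb, 0.62 for Il22ra1 and 0.88 for Il10rb, and Il20ra turned to 0.18. Per macrophage and monocyte count, a scale added after the values were seen, Il10rb turned to -0.15. The cause was not tested. DESeq2 put 2 members past the threshold on the higher side (Il10rb and Il20rb) and 2 on the lower side (Il24 and Il19). A filter of 1 CPM in 3 libraries and a non-robust fit each put 2 on the lower side. With 1 library left out, 0 to 1 members were past the threshold on the higher side and 1 to 2 on the lower side. For all genes the counts were 240 to 1545 higher and 420 to 1447 lower with 1 library left out. For the pathway lists they were 0 to 10 higher and 5 to 12 lower. With no filter 4 pathway genes were higher, and with DESeq2 16 were lower.

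With the replicate number as a block, 2 members (Il10rb and Il20rb) were past the threshold on the higher side and 13 pathway genes were lower. The numbers were not treated as pairing the libraries, since the correlations of same-numbered deviations were -0.0573, 0.0536 and 0.21, and not every library correlated best with its own number. The order of the levels, with its 6 neighbouring pairs, had the same direction with pseudocounts of 1 and 0.01 TPM, with FPKM and without each library. The 5 libraries left when 1 is out allow no p below 0.0625, so those fits say nothing about the threshold. Depth limits Il20, at 49 to 118 reads per library, and Il22, at 0 to 10.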
